A study of Mus musculus with 18 samples.

Results

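The libraries of group 2OFF, from mouse livers labelled as taken 2 days after injury without MycER activation, were compared with those of group 12ON, taken 12 days after injury with MycER activation. The members were chosen by these labels and are 6 of the 18 libraries of the study, 3 from each group. The comparison covered the 17789 genes that passed the filter on low counts. It was made with and without the second 2OFF library (replicate 2), to show which genes lay lower in all 3 2OFF livers and which only in 2 of them.

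All 18 libraries are poly-A RNA from whole mouse liver, 3 mice per time point. Injury was given as intraperitoneal carbon tetrachloride at 0.5 µL per g of body weight, a hepatotoxin that damages the hepatocytes around the central vein. MycER joins the transcription factor MYC to a receptor domain that binds tamoxifen, and 1 mg of tamoxifen injected into the peritoneum each day switched it on. The same dose is listed for all 18 libraries, those labelled without MycER activation included, so exposure cannot be compared between groups. The labels do not say which cells or promoter carry MycER, whether it had been active earlier in the 2OFF mice, or the sex, age and strain of the mice, and day after injury and MycER activation differ together between these groups and cannot be told apart.

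MYC is a basic helix-loop-helix transcription factor that binds the E-box with its partner MAX and raises the transcription of genes for ribosome assembly, nucleotide synthesis and entry into S phase. Hepatocytes of the adult liver are mostly quiescent and re-enter the cell cycle after loss of tissue. Genes of mitosis come on later in the cycle than those of the G1/S transition, and many carry the cell cycle homology region (CHR) that DREAM and MYBL2-FOXM1 complexes bind.

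The promoters of 4 genes are shown as examples of the 2 patterns that the comparison turned on. They were picked from the MYC target, ribosome assembly and mitosis lists among genes whose window held the marked letters. The presence of a match was thus a condition of the choice and not a result. Wdr43 and Apex1 lay below every 12ON library in all 3 2OFF libraries, and Aurka and Top2a in replicates 1 and 3 only. Sequences run from 250 bases before to 50 bases after the RefSeq start in GRCm38.p6, on the strand of the gene, with the E-box CACGTG in capitals in the first pair and the CHR letters TTTGAA, on either strand (TTCAAA), in the second.
Wdr43 promoter, chr17:71615965-71616264 (+ strand): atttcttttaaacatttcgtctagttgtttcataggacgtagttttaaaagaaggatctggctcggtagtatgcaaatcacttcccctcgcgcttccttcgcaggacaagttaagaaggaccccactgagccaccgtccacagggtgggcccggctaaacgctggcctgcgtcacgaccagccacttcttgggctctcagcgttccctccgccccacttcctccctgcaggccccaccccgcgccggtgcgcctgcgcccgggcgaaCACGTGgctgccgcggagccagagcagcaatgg
Apex1 promoter, chr14:50924699-50924998 (+ strand): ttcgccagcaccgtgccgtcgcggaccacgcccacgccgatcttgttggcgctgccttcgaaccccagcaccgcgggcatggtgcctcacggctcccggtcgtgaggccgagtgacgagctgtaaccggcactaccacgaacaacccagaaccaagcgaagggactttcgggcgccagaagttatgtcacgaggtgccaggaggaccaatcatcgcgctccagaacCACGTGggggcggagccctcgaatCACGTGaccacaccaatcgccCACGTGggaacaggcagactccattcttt
Aurka promoter, chr2:172370521-172370820 (- strand): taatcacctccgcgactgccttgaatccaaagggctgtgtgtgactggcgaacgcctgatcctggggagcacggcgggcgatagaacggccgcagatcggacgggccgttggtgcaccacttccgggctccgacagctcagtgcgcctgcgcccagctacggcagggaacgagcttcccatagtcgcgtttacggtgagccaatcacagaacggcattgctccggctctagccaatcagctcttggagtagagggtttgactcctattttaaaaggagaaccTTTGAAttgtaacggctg
Top2a promoter, chr11:99024140-99024439 (- strand): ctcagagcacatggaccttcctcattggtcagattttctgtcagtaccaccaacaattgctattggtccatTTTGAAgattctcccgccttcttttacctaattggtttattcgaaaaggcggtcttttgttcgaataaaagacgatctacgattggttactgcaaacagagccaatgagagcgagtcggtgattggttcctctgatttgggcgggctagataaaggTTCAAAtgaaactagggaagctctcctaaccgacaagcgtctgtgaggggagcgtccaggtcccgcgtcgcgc
The window of Apex1 holds 3 E-boxes and that of Wdr43 holds 1. Top2a has 2 CHR matches and Aurka 1.

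The 2OFF libraries held 34.2 to 75.3 M gene counts and the 12ON libraries 36.6 to 46.8 M, with 21095 to 22315 and 21523 to 21685 genes detected. Mitochondrial genes took 6.69% to 7% of counts in 2OFF and 6.42% to 7.11% in 12ON. Alb, the albumin gene of hepatocytes, lay between 21610 and 29870 CPM in all 6 libraries. Markers of T and NK cells summed to at most 14.3 CPM in any of them, and those of B and plasma cells to at most 25.3 CPM. Xist, transcribed from the inactive X chromosome of females, was at 455.3 CPM in 2OFF replicate 1 and 390.1 CPM in 12ON replicate 2 and under 1 CPM in the other 4. Prss2, a trypsinogen of the exocrine pancreas, was at 18.3 CPM in 12ON replicate 3 and under 1 CPM in the other 5.

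With all 6 libraries no gene passed the test in either direction, although most genes of MYC-driven growth and DNA replication lay lower in all 3 2OFF livers. The quasi-likelihood test of edgeR, with p-values adjusted by Benjamini-Hochberg, gave 0 genes lower and 0 higher at 0.05 among the 17789 tested (0% called). The smallest adjusted p was 0.0503, in a fit that took its spread from all 18 libraries. Pcna, Dkc1 and Nup85, at 0.0503 in that fit, each had an adjusted p of 0.28 by edgeR on the 6 libraries alone. At an unadjusted p under 0.05, 1725 genes (9.7%) were lower and 1314 (7.39%) higher, and an adjusted p under 0.1 held for 460 lower and 154 higher genes. The count depended on the tool. DESeq2 called 666 genes lower and 287 higher on the same libraries, and limma voom with sample quality weights called 1013 and 369.

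Leaving out 2OFF replicate 2 changed the count more than leaving out any other of the 6 libraries. Without it the same edgeR test called 995 genes lower (5.59%) and 526 higher (2.96%), of which 318 and 117 differed at least 2-fold. Without replicate 1 or replicate 3 it called 0 in each direction. Without 12ON replicate 1 it called 19 lower (0.107%) and 2 higher (0.0112%), without 12ON replicate 3 it called 1 lower (0.00562%), and without 12ON replicate 2 none.

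**Figure D1:**
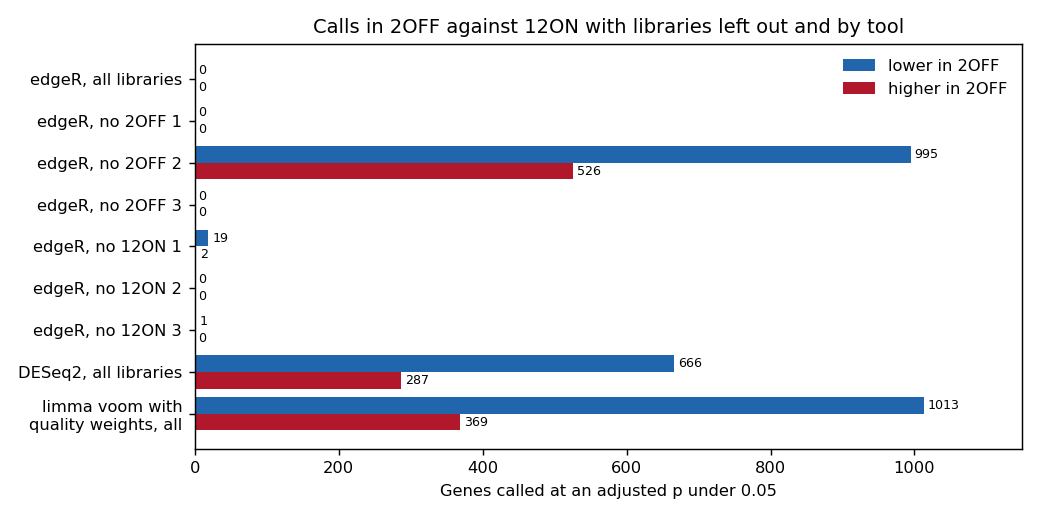
Genes called at an adjusted p under 0.05 in 2OFF against 12ON (horizontal axis, number of genes, blue lower and red higher in 2OFF), for edgeR with all libraries or without 1 named library, and for DESeq2 and limma voom with quality weights on all libraries. The bars without 2OFF replicate 2 reach 995 and 526, while edgeR with all libraries gives 0 and 0.

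Replicate 2 lay closer to the 12ON libraries than to the other 2OFF libraries. Its root mean square log2 distance over genes was 0.459 to 0.546 from the 12ON libraries and 0.599 to 0.621 from 2OFF replicates 1 and 3. Replicate 1 was at 0.539 to 0.627 from 12ON and at 0.532 from replicate 3, while replicate 3 was at 0.607 to 0.766 from 12ON. The 12ON libraries were 0.444 to 0.498 from one another. The median SD of log2 CPM per gene was 0.207 over the 3 2OFF libraries and 0.146 over the 12ON libraries. Among pairs of 2OFF libraries it was 0.139 for replicates 1 and 3, 0.184 for replicates 1 and 2 and 0.18 for replicates 2 and 3, on a scale that differs from that of 3 libraries. Limma's quality weight for replicate 2 was 0.433, against 0.869 for replicate 1 and 1.01 for replicate 3. Replicate 2 held 34.2 M counts, against 75.3 and 39.8 M in replicates 1 and 3, its mitochondrial share was 6.69% against 6.76% and 7%, and its Xist level was low like that of replicate 3. Their part in the distance was not tested, and the labels give no batch or date. Replicate 2 was thus set apart by the same expression values that the test uses. Leaving out the 2OFF library nearest to 12ON tends to widen the group difference and narrow the spread. Calls and adjusted p-values without replicate 2 can therefore be too favourable and are given as a description.

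Genes were sorted by which 2OFF libraries lay outside the range of the 12ON libraries. Of the 17789 genes, 2171 (12.2%) lay below every 12ON library in all 3 2OFF libraries, and 1653 (9.29%) above. A further 3361 genes (18.9%) lay below in exactly 2 libraries. That group held 1924 genes (10.8%) below in replicates 1 and 3, 968 (5.44%) in replicates 2 and 3 and 469 (2.64%) in replicates 1 and 2. Above the 12ON range in exactly 2 libraries were 3840 genes (21.6%), with 2331 (13.1%) in replicates 1 and 3, 989 (5.56%) in replicates 2 and 3 and 520 (2.92%) in replicates 1 and 2. Replicate 2 alone was below in 2015 genes (11.3%) and above in 1668 (9.38%), replicate 1 alone in 1449 (8.15%) and 1474 (8.29%), and replicate 3 alone in 1133 (6.37%) and 1592 (8.95%). These are positions and not tests, and most are small steps. The shares in brackets are the background for the list counts given below. When each library had to lie 2-fold beyond the 12ON range, 7 genes were below and 8 above in all 3 libraries, and 202 and 77 in exactly 2. Scaling by library size alone moved the median of all genes by -0.14 on the log2 scale and gave 3390 genes below and 676 above in all 3, so directions are given relative to the typical gene.

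**Figure D2:**
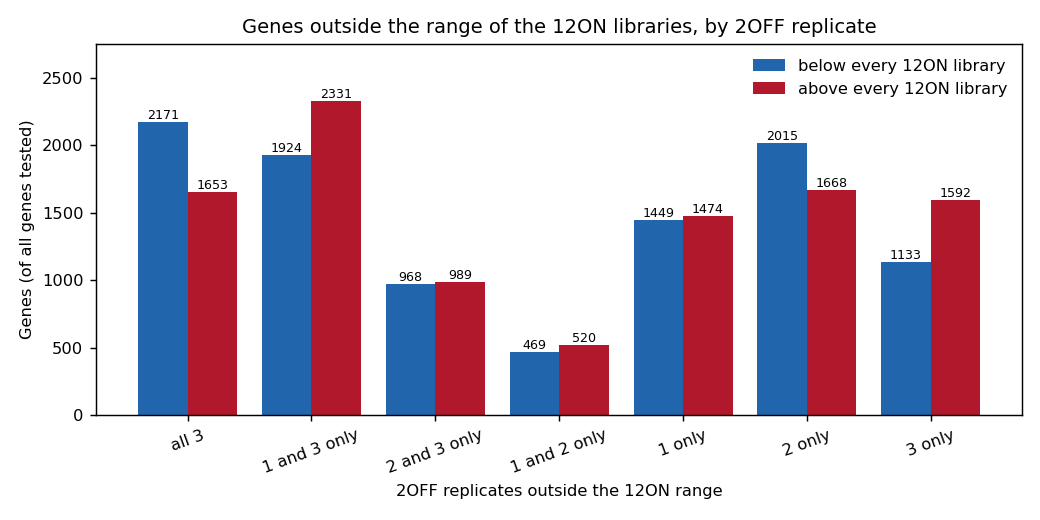
Number of genes (vertical axis) outside the range of the 3 12ON libraries, by the 2OFF replicates in which they lay outside it (horizontal axis), blue below and red above. Pairs that include replicates 1 and 3 hold 1924 and 2331 genes, more than either pair with replicate 2.

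Genes called without replicate 2 were mostly on the same side in replicate 2 when they were lower, and less so when they were higher. Of the 995 called lower, replicate 2 lay below every 12ON library in 701 (70.5%), within the 12ON range in 258 and above it in 36. Their median log2 difference from the 12ON mean was -0.63, -0.24 and -0.67 in replicates 1, 2 and 3, and -0.98 in group 12, the mice at 12 days without MycER activation. Of the 526 called higher, replicate 2 lay above every 12ON library in 213 (40.5%), within the range in 247 and below it in 66, with medians of 0.71, 0.10 and 0.70. Over all genes, replicate 2 was below in all of 12.2% (all 3), 5.44% (2 and 3 only), 2.64% (1 and 2 only) and 11.3% (2 only). It was above in 9.29%, 5.56%, 2.92% and 9.38% in the same classes. The called genes were chosen by replicates 1 and 3 and by the same 12ON libraries that set the range. The position of replicate 2 is thus not independent of the choice. The difference between 70.5% and 40.5% was not tested.

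Genes of the MYC programme lay lower in all 3 livers. Of 40 canonical MYC targets, 31 were below every 12ON library in all 3 2OFF libraries and 5 in replicates 1 and 3 only, against 12.2% and 10.8% of all genes, and the median log2 difference was -0.43 against 0.01 over all genes. Medians by replicate were -0.51, -0.29 and -0.51. Without replicate 2, 21 of the 40 were called lower and 0 higher, where 5.59% and 2.96% of all genes were. Pcna, the sliding clamp of DNA polymerase, was at 46.2, 64.0 and 61.0 CPM in 12ON and at 22.5, 40.4 and 25.7 CPM in 2OFF replicates 1, 2 and 3. Its groups did not overlap, with replicate 2 nearest to 12ON, and the log2 difference was -0.95 ± 0.17 (SE, adjusted p = 0.0503 by edgeR), or -1.26 ± 0.14 without replicate 2 (adjusted p = 0.000216). Ccnd2, which encodes cyclin D2 of the G1 phase, was at 26.1, 57.6 and 36.6 CPM in 12ON and 14.9, 17.2 and 13.5 CPM in 2OFF, where replicate 2 stood with the others. Nolc1, a nucleolar chaperone, was at 58.0, 70.2 and 60.9 CPM against 31.9, 49.0 and 36.4 CPM. For Fbl, the methyltransferase fibrillarin, the values were 67.1, 83.7 and 75.7 CPM against 49.1, 58.5 and 51.5 CPM. Apex1, an endonuclease of base excision repair, was at 48.7, 65.0 and 55.0 CPM against 33.9, 45.4 and 33.5 CPM. In each of these 5 genes every 2OFF library lay below every 12ON library.

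Ribosome assembly factors also lay lower in all 3 livers. Of 40 genes, 32 were below every 12ON library in all 3 2OFF libraries and 6 in replicates 1 and 3 only, with a median of -0.36 and medians by replicate of -0.46, -0.23 and -0.43. Without replicate 2, 26 were called lower and 0 higher. Dkc1, the pseudouridine synthase dyskerin, was at 33.2, 44.5 and 40.4 CPM in 12ON and 25.99, 28.4 and 25.7 CPM in 2OFF, a log2 difference of -0.56 ± 0.10 (adjusted p = 0.0503 by edgeR). Wdr43, a factor of the small subunit processome, was at 47.4, 58.0 and 50.6 CPM against 35.8, 38.6 and 35.6 CPM. Outside the list, Snu13 (chromosome 15, 82041319 to 82047598), a protein of box C/D small nucleolar RNPs, was at 43.3, 54.0 and 48.2 CPM against 30.6, 34.9 and 31.9 CPM and had the smallest p of all genes (unadjusted 1.18e-05, log2 -0.58 ± 0.09). In these 3 genes replicate 2 was the highest 2OFF library by a few CPM and still under the lowest 12ON library. Nhp2, of the box H/ACA RNPs, and Utp15, of the processome, were below in all 3 as well.

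The structural proteins of the ribosome did not share this pattern. Of 30 cytosolic ribosomal protein genes, 4 were below every 12ON library in all 3 2OFF libraries (12.2% of all genes). In replicates 2 and 3 only, 16 were below (5.44%), and in replicate 2 only, 8 (11.3%). None of the 30 genes was called without replicate 2. Their medians were 0.01, -0.18 and -0.11 in replicates 1, 2 and 3, and -0.91 in group 12. Rpl18 was at 390.1, 450.9 and 368.5 CPM in 12ON and 352.5, 338.4 and 316.2 CPM in 2OFF, below in all 3 but by little, with a log2 difference of -0.26 ± 0.12 (adjusted p = 0.281 by edgeR).

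Enzymes of nucleotide and polyamine synthesis had 14 of 25 genes below every 12ON library in all 3 2OFF libraries and 7 in replicates 1 and 3 only, with a median of -0.50. Without replicate 2, 14 were called lower and 0 higher. Gart, a trifunctional enzyme of purine synthesis, was at 70.8, 89.5 and 76.7 CPM in 12ON and 53.3, 58.8 and 53.6 CPM in 2OFF (log2 -0.52 ± 0.10, adjusted p = 0.0503 by edgeR). Tyms, thymidylate synthase, was at 20.02, 26.9 and 21.8 CPM against 12.7, 17.6 and 10.7 CPM, and neither gene overlapped between the groups. Outside the list, Dut, which removes dUTP and so keeps uracil out of DNA, was at 20.2, 25.5 and 20.6 CPM in 12ON and 12.1, 15.4 and 9.94 CPM in 2OFF. Dctd, also outside it, which makes dUMP for thymidylate synthesis, was at 13.2, 18.8 and 13.02 CPM against 7.69, 5.40 and 4.00 CPM. Replicate 2 was the highest of the 2OFF libraries for Dut and the middle one for Dctd.

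Some of the genes with the smallest p were outside these lists. They were named after their values were seen. Nup85, of the nuclear pore, was at 43.2, 49.5 and 45.8 CPM in 12ON and 30.0, 31.5 and 27.2 CPM in 2OFF, and Thop1, a cytosolic peptidase, at 62.0, 77.9 and 63.3 CPM and 38.8, 43.0 and 33.2 CPM. Timm50, of the mitochondrial import channel, was at 48.6, 56.8 and 48.3 CPM against 34.6, 40.4 and 32.9 CPM. In all 3 genes each 2OFF library was below each 12ON library. Their adjusted p was 0.0503, the same value that Dut, Pelp1, Psmg3 and Sinhcaf had.

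Several of the widest gaps between the groups that held in all 3 livers were outside the growth lists. Cenpn, which binds the centromeric nucleosome, was at 3.95, 4.49 and 4.40 CPM in 12ON and 1.253, 2.05 and 0.89 CPM in 2OFF. Its log2 difference was -1.62 ± 0.29 (adjusted p = 0.0503 by edgeR). Jag2, a Notch ligand, was at 20.2, 27.5 and 15.2 CPM against 8.23, 9.74 and 1.91 CPM, and Amn, a partner of the vitamin B12 receptor, at 24.6, 35.6 and 25.4 CPM against 14.6, 16.1 and 7.16 CPM. Replicate 3 was the lowest in each of these 3 genes, and replicate 2 was the highest of the 2OFF libraries. Sftpd, a collectin of surfactant and mucosal surfaces, was at 4.43, 4.93 and 3.89 CPM against 2.28, 1.31 and 0.75 CPM. In the other direction Timp4, an inhibitor of matrix proteases, was at 23.3, 14.8 and 14.6 CPM in 12ON and 71.2, 38.4 and 67.5 CPM in 2OFF, and Plin4, a lipid droplet coat protein, at 8.57, 8.22 and 9.53 CPM against 18.9, 15.5 and 20.6 CPM (log2 1.06 ± 0.23, adjusted p = 0.0584 by edgeR). Both were higher in every 2OFF library, with replicate 2 nearest to 12ON. Cyp26b1, which degrades retinoic acid, was at 2.36, 1.98 and 1.74 CPM against 4.00, 5.78 and 3.74 CPM, with replicate 2 the highest. The mitochondrial tRNA genes mt-Ty and mt-Tc, at 6.98, 7.21 and 7.41 CPM and 6.15, 6.07 and 7.45 CPM in 12ON, were at 12.9, 11.6 and 16.0 CPM and 12.0, 11.4 and 17.0 CPM in 2OFF. They neighbour each other, and a read over both was counted for each, so these are not independent values.

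Genes of the G1/S transition and DNA replication had a larger step, and replicate 2 showed only part of it. Of 30 genes, 26 were below every 12ON library in all 3 2OFF libraries and 3 in replicates 1 and 3 only. The median log2 difference was -1.07, with -1.42, -0.48 and -1.63 in replicates 1, 2 and 3, and 29 of 30 were highest in replicate 2 among the 2OFF libraries. Without replicate 2, 26 were called lower and 0 higher. Rfc4, a subunit of the clamp loader, was at 12.7, 12.2 and 12.8 CPM in 12ON and 5.25, 8.66 and 3.96 CPM in 2OFF, with a log2 difference of -1.08 ± 0.20 (adjusted p = 0.0503 by edgeR) and -1.45 ± 0.14 without replicate 2 (adjusted p = 0.000119). Cdt1, which licenses replication origins, was at 17.6, 23.3 and 23.4 CPM against 6.60, 13.9 and 6.17 CPM, and Cdc6, which loads the replicative helicase with it, at 4.93, 8.25 and 10.6 CPM against 1.00, 4.72 and 0.96 CPM. For all 3 the groups did not overlap, and replicate 2 stood between 12ON and the other 2OFF livers. Uhrf1, which carries DNA methylation through replication, was at 27.5, 41.2 and 45.5 CPM in 12ON and 5.41, 20.4 and 5.28 CPM in 2OFF. Rrm2, the small subunit of ribonucleotide reductase and a member of the nucleotide list, was at 29.9, 45.8 and 39.3 CPM against 11.2, 30.6 and 8.10 CPM, so that replicate 2 lay within the 12ON range and the others far below it.

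Mitosis genes set replicate 2 apart from the other 2OFF livers. Of 30 genes, 11 were below every 12ON library in all 3 2OFF libraries and the other 19 in replicates 1 and 3 only. All 30 were highest in replicate 2 and lowest in replicate 3 among the 2OFF libraries. The medians were -1.32, -0.36 and -2.53 in replicates 1, 2 and 3, and -3.11 in group 12. The log2 differences of the 30 genes ran from -1.71 to -0.83 in replicate 1, from -0.56 to -0.21 in replicate 2 and from -3.28 to -1.53 in replicate 3, ranges that replicates 1 and 2 did not share. Without replicate 2, 29 of the 30 were called lower and 0 higher. In bulk tissue fewer cycling cells and less of these RNAs per cell cannot be told apart.

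Top2a (chromosome 11, 98992943 to 99024189 in GRCm38), the topoisomerase that untangles chromosomes, was at 76.3, 97.9 and 59.2 CPM in 12ON and 24.1, 61.7 and 12.8 CPM in 2OFF. Replicate 2 lay above the lowest 12ON library, and the log2 difference was -1.25 ± 0.44 with all libraries (adjusted p = 0.155 by edgeR) and -2.08 ± 0.39 without replicate 2 (adjusted p = 0.0063). Aurka, a kinase of the spindle poles, was at 23.4, 26.5 and 15.7 CPM against 8.02, 17.7 and 3.21 CPM, and Prc1, which bundles the central spindle, at 29.1, 33.5 and 19.96 CPM against 9.55, 23.3 and 4.27 CPM. Both were within the 12ON range in replicate 2. Outside the list, Mybl2, the MYB protein that switches on mitotic genes, was at 5.60, 8.22 and 6.36 CPM against 2.13, 5.78 and 1.98 CPM. Mybl1, its relative, was at 14.1, 16.6 and 14.5 CPM against 3.33, 16.0 and 6.54 CPM, where replicate 1 was the lowest. Cdk1, the kinase that drives entry into mitosis, was among those below in all 3, at 31.5, 35.7 and 25.4 CPM against 11.1, 21.4 and 4.68 CPM. Incenp and Kif11, of the chromosomal passenger complex and the spindle, were also below in all 3. Esco2, also outside it, which acetylates cohesin, was at 12.6, 15.5 and 11.5 CPM in 12ON and 2.53, 6.36 and 1.40 CPM in 2OFF, a wide gap in all 3 (log2 -1.95 ± 0.44, adjusted p = 0.0599 by edgeR).

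**Figure D3:**
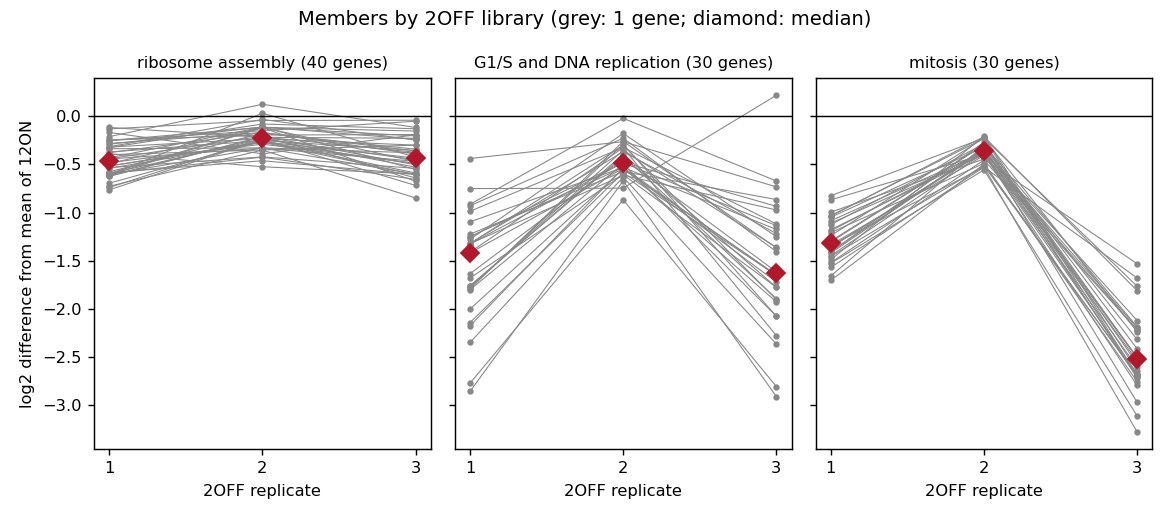
Log2 difference of each gene from its mean over the 12ON libraries (vertical axis) in 2OFF replicates 1, 2 and 3 (horizontal axis), for 40 ribosome assembly, 30 G1/S and DNA replication and 30 mitosis genes, each grey line 1 gene and each diamond the median. Replicate 2 is the highest point of every mitosis line, with medians of -1.32, -0.36 and -2.53.

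The promoter letters differed between these lists. RefSeq windows of 300 bases were given for 12476 of the 17781 symbols tested, and 9.57% of them held CACGTG, which reads the same on both strands. It was in 9 of 35 windows of ribosome assembly genes (25.7%), 8 of 33 of MYC targets (24.2%), 2 of 24 of mitosis genes (8.33%) and 1 of 24 of G1/S genes (4.17%). Similar shares were found in clock genes (4 of 13, 30.8%) and immediate early genes (4 of 16, 25%). Those lists had median log2 differences of 0.46 and 0.01, so the share was not particular to lists that lay lower. TTTGAA, on either strand, was in 12.8% of all windows, in 18 of 24 of mitosis genes (75%) and in 3 of 24 of G1/S genes (12.5%). The letters CCAAT, searched as well, were in 38.3% of all windows, 79.2% of mitosis, 66.7% of G1/S and 88.2% of cholesterol synthesis windows. All motifs were searched over the whole window on both strands, and matches of CACGTG and TTTGAA cannot overlap. Among genes below in all 3 2OFF libraries, 11.4% of windows held the E-box and 14.7% the CHR letters, and among those below in replicates 1 and 3 only, 11.1% and 13.5%. No test was made of these shares, and a match is a run of letters and not a bound site.

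Targets of p53 and inhibitors of the cell cycle kinases lay apart in replicate 2. Of 24 such genes, 9 were below the 12ON range in replicates 1 and 3 only (10.8% of all genes) and 1 in all 3 (12.2%). Above it were 8 in replicate 2 only (9.38%). Without replicate 2, 5 were called lower and 0 higher. Bax, which permeabilises mitochondria in apoptosis, was at 47.5, 55.1 and 46.3 CPM in 12ON and 24.9, 49.1 and 31.2 CPM in 2OFF. Zmat3, an RNA-binding target of p53, and Aen, a nuclease, also stood within the 12ON range in replicate 2 and below it in the other livers.

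Several hepatocyte lists, though not all, had many genes above the 12ON range in replicates 1 and 3 and a median near the 12ON level in replicate 2. Of 20 periportal genes, 2 were above every 12ON library in all 3 2OFF libraries and 12 in replicates 1 and 3 only, against 9.29% and 13.1% of all genes, with medians of 0.72, -0.09 and 0.76 in replicates 1, 2 and 3. Without replicate 2, 8 were called higher and 0 lower. Pigr, the receptor that carries IgA into bile, was at 266.0, 106.7 and 193.9 CPM in 12ON and 537.8, 203.8 and 825.1 CPM in 2OFF. Its value in replicate 2 was inside the 12ON range, and the log2 difference was 1.47 ± 0.38 with all libraries (adjusted p = 0.0722 by edgeR) and 1.84 ± 0.29 without replicate 2 (adjusted p = 0.00231). Asl, the argininosuccinate lyase of the urea cycle, was at 282.1, 207.4 and 262.3 CPM against 486.8, 230.4 and 494.0 CPM. Uox, urate oxidase, was higher in all 3, at 544.3, 322.4 and 507.6 CPM against 723.9, 709.6 and 971.1 CPM. Pck1, the gluconeogenic enzyme, went the other way in replicate 2, at 735.2, 296.2 and 388.9 CPM in 12ON and 1439, 152.3 and 803.4 CPM in 2OFF.

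Perivenous and fatty acid oxidation genes did not share this pattern. Of 20 perivenous genes, 0 were above every 12ON library in all 3 2OFF libraries (9.29% of all genes) and 5 in replicates 1 and 3 only (13.1%). In replicate 3 only, 7 were above (8.95%), and in replicate 2 only, 6 were below (11.3%). Their medians were 0.08, -0.43 and 0.56 in replicates 1, 2 and 3. Without replicate 2, 1 was called lower and 0 higher, where 5.59% and 2.96% of all genes were. Of 25 genes of fatty acid oxidation, 10 were above in replicate 1 only (8.29% of all genes) and 3 in replicates 1 and 3 only (13.1%). Below were 4 in replicates 1 and 3 only (10.8%) and 3 in all 3 (12.2%). None of the 25 was called without replicate 2.

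Among 25 secreted hepatocyte proteins, 7 were above every 12ON library in all 3 2OFF libraries and 11 in replicates 1 and 3 only, with medians of 0.51, 0.05 and 0.47. Without replicate 2, 6 were called higher and 1 lower. Apoh, a phospholipid-binding plasma protein, was at 1137, 879.6 and 1104 CPM in 12ON and 1871, 1093 and 1703 CPM in 2OFF, and F2, prothrombin, at 1102, 934.4 and 1155 CPM against 1588, 1160 and 1530 CPM. Replicate 2 was within the 12ON range for Apoh and just above it for F2. Of 20 hepatocyte transcription factors, 5 were above in all 3 and 5 in replicates 1 and 3 only, and 3 were called higher without replicate 2. These were Nr1i3, the xenobiotic receptor CAR, at 81.3, 62.6 and 66.5 CPM against 138.0, 68.0 and 130.9 CPM, with Prox1 and Nr1h4, the bile acid receptor FXR.

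Acute phase genes had 14 of 24 above the 12ON range in replicates 1 and 3 only (13.1% of all genes) and 1 in all 3 (9.29%). Medians were 0.73, 0.10 and 0.92 in replicates 1, 2 and 3. Without replicate 2, 2 were called higher and 0 lower. Serpina3k, a serine protease inhibitor, was at 183.7, 51.3 and 79.9 CPM in 12ON and 485.0, 101.4 and 693.0 CPM in 2OFF, and at 6104 CPM in group 12. It has near-identical neighbours in the Serpina3 cluster, so its reads are uncertain. Among genes in no list, Abcc6 (chromosome 7, 45976380 to 46030302), which mediates ATP release from hepatocytes, was at 18.4, 14.1 and 22.5 CPM in 12ON and 68.5, 19.4 and 68.7 CPM in 2OFF. Replicates 1 and 3 thus stood far above the highest 12ON library and replicate 2 within the 12ON range (log2 1.51 ± 0.43 with all libraries, adjusted p = 0.0941 by edgeR, and 1.89 ± 0.35 without replicate 2, adjusted p = 0.00637). Arrdc2, an arrestin-like protein, and Nnmt, the nicotinamide methyltransferase, had the same shape. Cyp17a1, a steroid hydroxylase, was at 28.7, 12.8 and 20.96 CPM in 12ON and 94.4, 11.1 and 183.3 CPM in 2OFF, so that replicate 2 lay below every 12ON library and the other livers above.

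Cyp2b10, Cyp2c29 and Cyp2c55, cytochromes induced through CAR and PXR, lay lower in all 3 2OFF livers. Cyp2b10 was at 5.89, 8.49 and 1.79 CPM in 12ON and 1.64, 0.30 and 0.31 CPM in 2OFF, with a log2 difference of -2.74 ± 0.68 (adjusted p = 0.0654 by edgeR). Cyp2c29 was at 371.9, 255.2 and 274.3 CPM against 129.3, 89.2 and 206.5 CPM, with replicate 2 the lowest. Of the 16 tested genes of drug metabolism, 7 were below every 12ON library in all 3 2OFF libraries (12.2% of all genes). A further 3 were below in replicates 1 and 3 only (10.8%), while another 3 were above in replicates 1 and 3 only (13.1%). Without replicate 2, 1 of the 16, Cyp2c55, was called lower (adjusted p = 0.0373 by edgeR), where 5.59% of all genes were, and 0 higher. Cyp2b10 and Cyp2c29 then had adjusted p of 0.059 and 0.0757. These genes belong to families of close copies, so reads that align to more than 1 copy were lost and the values are uncertain.

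Fatty acid synthesis genes were mostly highest in replicate 2, in 13 of 18 genes. Of the 18, 7 were above every 12ON library in replicate 2 only (9.38% of all genes) and 4 in all 3 2OFF libraries (9.29%). Medians were 0.05, 0.54 and 0.12 in replicates 1, 2 and 3. Scd1, the stearoyl-CoA desaturase of the liver, was at 1043, 787.5 and 1436 CPM in 12ON and 911.9, 2879 and 976.1 CPM in 2OFF. Outside the list, Scd3 and Scd4, its paralogs, and Cidec, a lipid droplet protein, were also above the 12ON range in replicate 2 only. For each of them the log2 difference was positive with all libraries and negative without replicate 2, as it was for Scd1 (0.55 ± 0.50 and -0.22 ± 0.47). Acaca, acetyl-CoA carboxylase, was at 148.1, 120.9 and 166.9 CPM in 12ON and 194.4, 261.1 and 172.5 CPM in 2OFF, above in all 3 and highest in replicate 2. Pklr, of the glycolysis list, the liver pyruvate kinase that the glucose sensor ChREBP controls, was at 124.4, 64.8 and 132.4 CPM against 243.4, 253.8 and 191.2 CPM, above in all 3 (log2 1.10 ± 0.23, adjusted p = 0.0573 by edgeR). H2-Eb1, an MHC class II chain, was at 45.4, 43.6 and 25.1 CPM in 12ON and 28.6, 1.44 and 38.0 CPM in 2OFF, the widest gap among genes of at least 4 CPM below in replicate 2 only. Scd1, Scd3, Scd4, Cidec and H2-Eb1 were named after their values were seen.

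**Figure D4:**
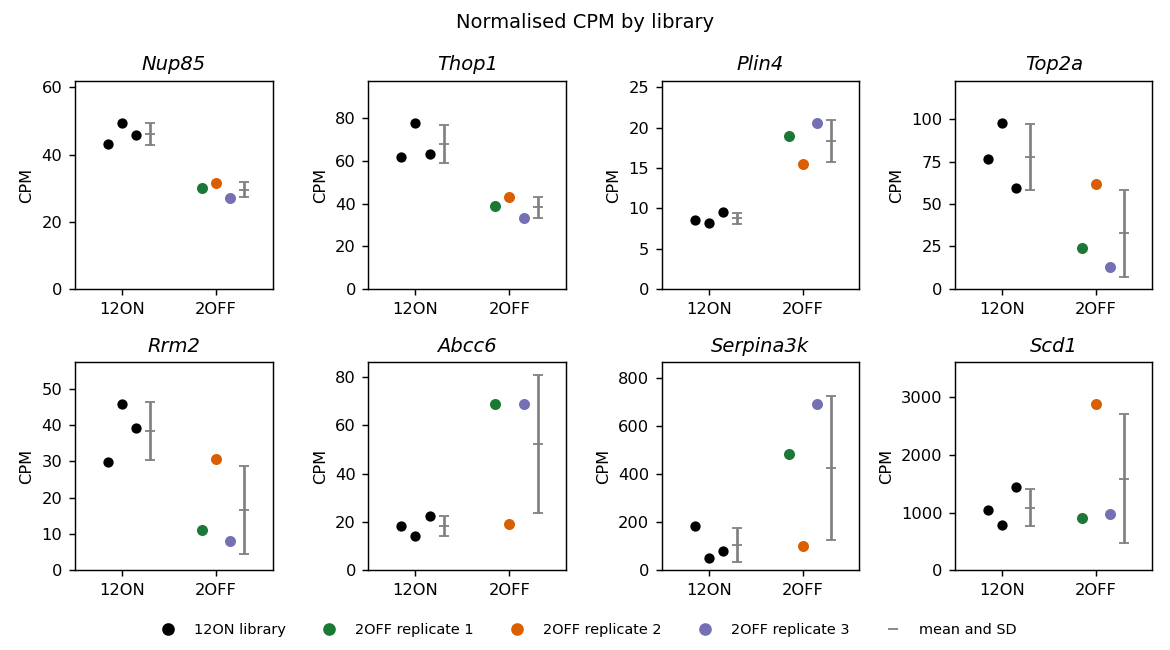
Normalised CPM by library (vertical axis, from 0) for 8 genes in the 12ON and 2OFF groups, black for 12ON, green, orange and purple for 2OFF replicates 1, 2 and 3, with the mean and SD in grey. Nup85, Thop1 and Plin4 separate the groups in all 3 replicates, Top2a, Rrm2, Abcc6 and Serpina3k in replicates 1 and 3, and Scd1 differs in replicate 2.

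Markers of other liver cells were read beside these genes. Of 14 cholangiocyte markers, 7 lay below every 12ON library in all 3 2OFF libraries (12.2% of all genes) and 2 in replicates 1 and 3 only. In the other direction 1 was above in all 3 and 1 in replicates 1 and 3 only. Medians were -0.90, -0.68 and -1.58 in replicates 1, 2 and 3. The summed level of the markers was 198.9 to 247.6 CPM in 2OFF and 310.6 to 343.8 CPM in 12ON, without overlap. Without replicate 2, 5 were called lower and 0 higher. Krt19, a keratin of bile duct cells, was at 6.24, 7.54 and 5.19 CPM in 12ON and 2.49, 2.85 and 1.83 CPM in 2OFF (log2 -1.40 ± 0.35, adjusted p = 0.0656 by edgeR). Spp1, osteopontin, made by duct cells and macrophages, was at 153.5, 150.1 and 171.7 CPM against 83.1, 93.4 and 44.3 CPM. It was a large part of the summed level, and without Spp1 the sums of the groups overlapped. Sinusoidal endothelium went the other way. Of 17 genes, 5 were above every 12ON library in all 3 2OFF libraries (9.29% of all genes) and 8 in replicates 1 and 3 only (13.1%). Without replicate 2, 5 of the 17 were called higher (2.96%). Stab2, a scavenger receptor of those cells, was at 43.7, 37.0 and 46.4 CPM in 12ON and 64.5, 50.6 and 77.4 CPM in 2OFF, and Stab1, its relative, was higher in all 3 as well. Kupffer cell, monocyte and neutrophil markers had no gene called without replicate 2 in 12, 21 and 12 genes, apart from Mrc1, which was called higher. Kupffer markers summed to 1059 to 1836 CPM in 2OFF and 1157 to 1673 CPM in 12ON. Of the 12, 6 were below the 12ON range in replicate 2 only (11.3% of all genes), while 7 were above it in replicate 3 only (8.95%). Stellate cell markers summed to 352.1 to 377.7 CPM against 333.4 to 365.4 CPM, and no member of that list or of the 25 collagen and matrix genes was called without replicate 2. Of all genes, 5.59% were then called lower and 2.96% higher, so the absence of calls in lists this short shows little. The part of cell composition in the differences above was not tested.

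**Figure D5:**
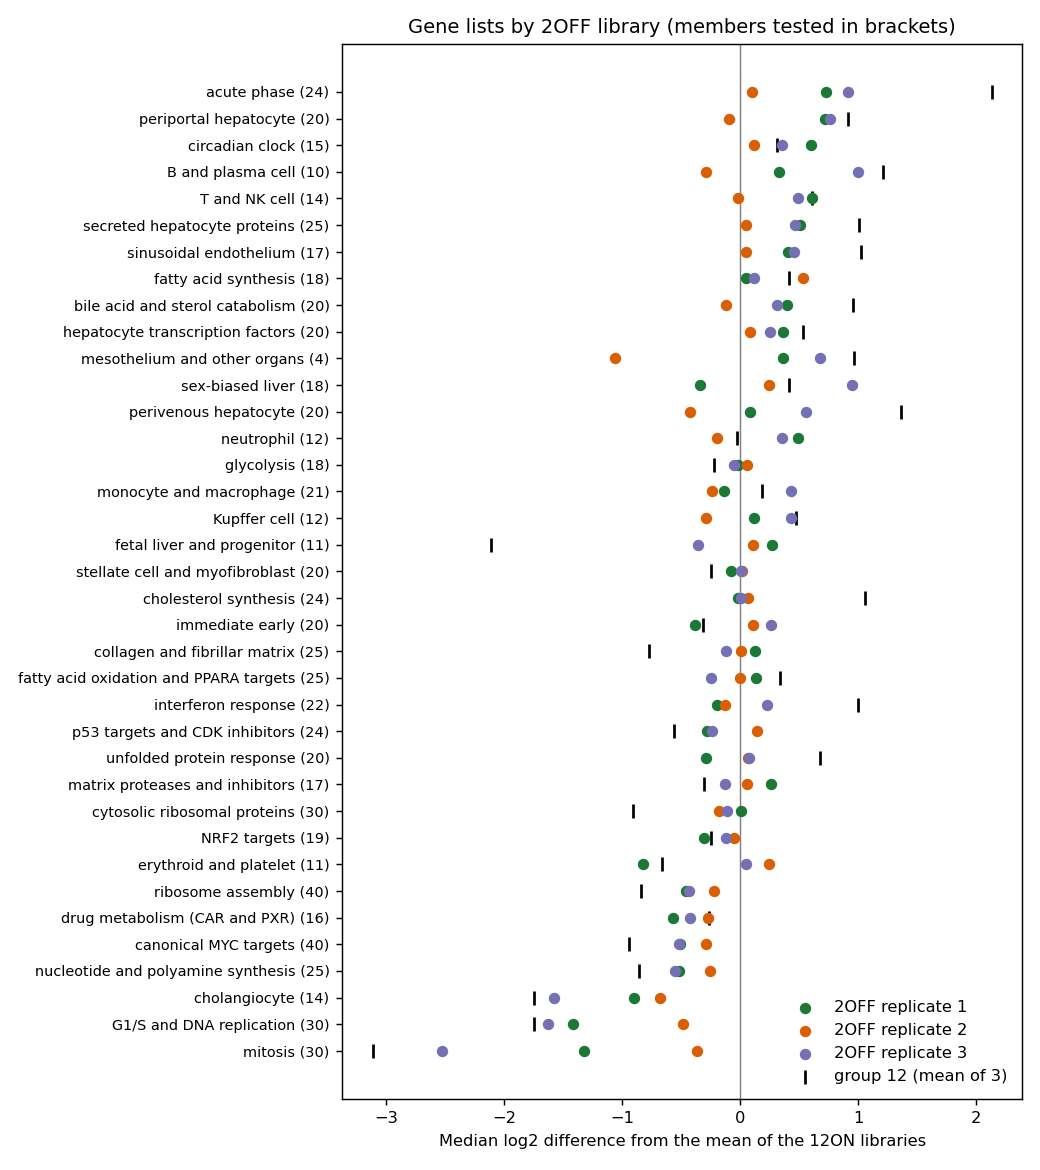
Median log2 difference from the 12ON mean (horizontal axis) of the genes of each list (vertical axis, number tested in brackets) in each 2OFF library, with group 12 as a black bar. Replicate 2 lies nearer 0 than replicates 1 and 3 for mitosis, G1/S, periportal and acute phase genes, and stands apart for fatty acid synthesis.

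The genes joined in the construct and the fetal growth genes were not called, with or without replicate 2. Myc was at 6.96, 5.15 and 6.68 CPM in 12ON and 5.60, 7.37 and 8.61 CPM in 2OFF, with a log2 difference of 0.19 ± 0.25 (adjusted p = 0.753 by edgeR). These counts do not tell a transgene read from an endogenous one. Esr1, which encodes the estrogen receptor, the source of the fusion's drug-binding part, was at 9.94, 11.4 and 9.05 CPM against 12.95, 7.72 and 19.97 CPM, and at 38.1 CPM in group 12. H19, a non-coding RNA of the fetal liver, was at 17770, 19690 and 23310 CPM in 12ON and 28010, 22400 and 15680 CPM in 2OFF, against a mean of 93.1 CPM in group 12. Its neighbour Igf2, a fetal growth factor, was at 5023, 3698 and 5621 CPM against 8394, 6546 and 6055 CPM, and 25.7 CPM in group 12, above every 12ON library in all 3 2OFF libraries (log2 0.55 ± 0.60, adjusted p = 0.699 by edgeR). Every library of both groups thus lay far above the group 12 mean for H19 and Igf2. Dlk1, a hepatoblast marker, was at 79.7, 38.5 and 41.2 CPM in 12ON and 33.8, 33.4 and 3.81 CPM in 2OFF, with replicate 3 the lowest, and Igf2bp3 at 31.2, 35.6 and 33.1 CPM against 32.5, 30.7 and 14.7 CPM.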

How the data were processed

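Each library is poly-A RNA of 1 mouse, read from a single end over 50 nt. The submitters' processing notes name Trim Galore, TopHat2 and the build mm10, without versions. Per the file headers, the deposited raw counts came from featureCounts 1.5.0-p1 and an Ensembl annotation of GRCm38, summed by gene over exons. Strand was ignored, 10 bases had to overlap, and a read over several genes counted for each. No option to count reads aligned to several places was set. All 34937 genes were read, and 17789 passed filterByExpr at a minimum count of 10. The 18 libraries entered 1 quasi-likelihood fit in edgeR 4.0.16 (R 4.3.3) with TMM scaling (biological coefficient of variation 0.202, residual degrees of freedom 12). The contrast was 2OFF minus 12ON, two-sided, and p-values were adjusted by Benjamini-Hochberg over all tested genes, with a threshold of 0.05. Each standard error was obtained as |log2 fold change|/√F. CPM values are counts scaled by TMM library sizes. Differences per library are log2 CPM with a prior count of 2 minus the 12ON mean, and positions outside the 12ON range carry no test.

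The members and the 37 gene lists, of which 732 of 745 genes were tested, were chosen with earlier results of these data known. Genes were named by a rule: Myc, Esr1, H19 and Igf2, then genes that passed with all libraries (none did), the 10 widest gaps in each direction in all 3 libraries and in replicates 1 and 3 only among genes of at least 4 CPM, the 6 largest differences in each direction without replicate 2, and up to 4 members of each list in each direction. Genes outside the range in replicate 2 only, those of smallest p, and Apex1 and Aurka, shown for their promoters, were added after their values were seen. A few genes that the rule or these additions would name are not reported here. Replicates differed by a chi-square per gene of 39.7 to 126, far above the value near 1 that copies of a library give. Alternatives were other scalings and filters, DESeq2 1.42.0, limma voom 3.58.1, the 6 libraries alone, an Xist term, a replicate block and leaving out each library. On simulated counts for 3 against 3 libraries and 17666 genes, the test found 34% of 50 genes set to differ 1.5-fold. It found 76% at 2-fold, 96% at 4-fold and 100% at 8-fold, and made 7 false calls. The simulated 2OFF libraries shared the same mean for each gene, and none stood apart as replicate 2 does. These shares thus hold only for replicates without such a difference. Total counts of 34.2 to 75.3 M make counting error small beside the spread between mice for the genes named, except those under about 1 CPM. P-values of the main fit measure the spread between mice within the groups of all 18 libraries, and not that of the 6 mice alone. This spread differed by group, with a median SD of log2 CPM of 0.146 in 12ON, 0.207 in 2OFF and 0.22 in 7OFF.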

Additional observations from a re-analysis of the deposited data

How the results depend on the processing

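With edgeR, RLE or upper quartile scaling, no filter, the 6 libraries alone and a term for high or low Xist each left 0 genes called lower and 0 higher. Other settings gave, lower and higher, 460 and 154 at an adjusted p of 0.1, 135 and 3 with library size alone, 52 and 7 at a minimum count of 50, 666 and 287 with DESeq2, and 1013 and 369 with limma voom. Combined with leaving out 2OFF replicate 2, DESeq2 gave 1352 and 853, and the 6 libraries alone 486 and 230. Leaving out 1 library gave 0 to 995 lower and 0 to 526 higher. Deviations of same-numbered libraries correlated at -0.0159, 0.137 and 0.104, and those of other pairs at -0.277 to 0.204. With so few libraries these correlations cannot show whether the replicate numbers pair the livers. A replicate block gave 346 and 93, which is reported for its count alone. Of the 1521 genes called without 2OFF replicate 2, DESeq2 on all libraries shared 789 of its 953 and voom 1156 of its 1382. Genes below the 12ON range in all 3 and in exactly 2 libraries numbered 3390 and 5307 with library size alone, 311 and 1058 at 1.5-fold beyond the 12ON mean, and 7 and 202 at 2-fold beyond the range. The same counts above it were 676 and 2079, 160 and 898, and 8 and 77. Leaving out 1 12ON library gave 2518 to 3139 and 3488 to 3940 below, and 2089 to 2723 and 4148 to 4355 above, since 2 libraries span a narrower range than 3. The log2 difference of H19 was -0.0119 with library size alone, and over the fits without 1 library it ran from -0.0894 to 0.32. Over the same fits Scd1 ran from -0.22 to 0.82, Scd3 from -0.31 to 0.78, Scd4 from -0.10 to 0.98 and Cidec from -0.59 to 0.67, each lowest without 2OFF replicate 2. With voom Scd3 was at -0.0631 and Cidec at -0.23. The number of edgeR calls at 0.05 thus moved with 1 liver, and with all livers kept it moved with the tool, the threshold, the scaling and the count minimum. The cause of the difference between tools was not tested.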

Other observations

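Oxidative stress genes under NRF2 and the clock also differed by liver. Of 19 NRF2 targets, 4 were below every 12ON library in all 3 2OFF libraries (12.2% of all genes) and 6 in replicates 1 and 3 only (10.8%). Above the 12ON range were 5 in replicate 2 only (9.38%). Gsr, glutathione reductase, was at 103.0, 113.6 and 98.7 CPM in 12ON and 69.3, 99.6 and 73.5 CPM in 2OFF, so that replicate 2 lay within the 12ON range. Slc7a11, the cystine importer, was at 12.8, 17.7 and 12.2 CPM against 7.39, 12.9 and 7.79 CPM, with the same shape. Of 15 clock genes, 6 were above every 12ON library in replicate 1 only (8.29% of all genes) and 4 in all 3 2OFF libraries (9.29%). Below were 4 in replicate 2 only (11.3%) and 3 in replicates 2 and 3 only (5.44%). None of the 15 was called without replicate 2. The hour of sampling is not in the labels, and its part was not tested.

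Bile acid genes followed the periportal ones. Of 20, 9 were above the 12ON range in replicates 1 and 3 only (13.1% of all genes) and 0 in all 3 (9.29%). Without replicate 2, 3 were called higher (2.96%). Slc10a1, the bile acid importer NTCP, was at 192.7, 122.1 and 189.8 CPM in 12ON and 374.0, 157.6 and 278.9 CPM in 2OFF, with replicate 2 within the 12ON range. Cholesterol synthesis genes showed no separation, with a median log2 difference of 0.01 over 24 genes and 0 called without replicate 2. No gene was called either among 22 interferon response, 20 unfolded protein response and 20 immediate early genes. Of these, 6, 2 and 4 lay above the 12ON range in replicate 3 only, where 8.95% of all genes did. Below it in replicate 1 only were 2, 10 and 8, where 8.15% of all genes were. The 2 unfolded protein response genes above and the 2 interferon genes below were thus near the share of all genes.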
